A study of Bos taurus with 8 samples.

Results

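The 9 genes described here encode enzymes that build fatty acids and triglycerides, with the transcription factor that controls many of them: SREBF1, ACLY, ACACA, FASN, SCD, GPAM, LPIN1, DGAT1 and DGAT2. They were chosen by name for their place in the pathway, with earlier results of these data known. Each was found on the array through the gene name that the array design gives to its probe, and each had 1 probe. They are 9 of 14962 gene names, carried by 15008 probes. The tissue was rumen epithelium of Holstein bulls with a rumen fistula, aged 7.4 ± 0.3 months and weighing 215.2 ± 20.4 kg. In the cross-over, 5 bulls received each diet for 14 days with no wash-out between diets. The control diet was a high-grain diet with corn flakes, and the WP diet had wood kraft pulp, a cellulose-rich fibre, in place of 50% of the corn flakes. Calves 21, 23, 24 and 25 each gave 1 array on either diet, so each calf is its own control. No group received an untreated or forage-only diet, so all values come from animals on grain-rich feeding.

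Fatty acid synthesis joins acetyl units into long chains. ACLY, the ATP citrate lyase, makes cytosolic acetyl-CoA from citrate, ACACA, the acetyl-CoA carboxylase, turns it into malonyl-CoA, and FASN, the fatty acid synthase, extends the chain to palmitate. SCD, the stearoyl-CoA desaturase, puts a double bond into saturated acyl chains. GPAM, a mitochondrial glycerol-3-phosphate acyltransferase, starts the glycerol route, LPIN1, a phosphatidate phosphatase, makes diacylglycerol, and DGAT1 and DGAT2, the diacylglycerol acyltransferases, complete the triglyceride. The SREBF1 protein is held in the endoplasmic reticulum until it is cut, then enters the nucleus and activates many of these genes. In ruminants acetate from rumen fermentation, more than glucose, is the carbon source for fatty acid synthesis, and ACLY is known for low activity in ruminant fat tissue. The rumen epithelium absorbs the short-chain fatty acids of fermentation and converts part of them to ketone bodies.

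Every value below rests on one 60-base probe per gene, so the start of each probe is printed to show which stretch of the transcript was measured. The lines give the first 30 bases, 5′ to 3′, as the array design holds them.
SREBF1: atcccctggcccaggtgactcaactgttcc
ACLY: tttttctgagtccagaactgatgaggtggc
ACACA: ttcattattggctccgtgtctgaagataac
FASN: cacccctggacagcatccagagcctggcca
SCD: ggaaacatacacaggataccttttccttaa
GPAM: ctacctcaatgcaaccggcaaaaactcctg
LPIN1: taacacagaacccttctatgctgcttttgg
DGAT1: atcttaagcaacgcacggttatttctagag
DGAT2: acaagtgtcctctatgagttattgttaggg

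On UMD 3.1, the build named in the file headers, 4 of the 9 probes lie on chromosome 19: FASN at chr19:51402169-51402228 on the plus strand, ACACA at chr19:13966524-13966583 on the minus strand, ACLY at chr19:42717993-42718052 on the minus strand and SREBF1 at chr19:35247770-35247829 on the plus strand. SCD (chr26:21138067-21138126) and GPAM (chr26:32967036-32967095) lie on chromosome 26, both on the minus strand. DGAT2 lies at chr15:55973044-55973103 on the plus strand. The DGAT1 probe is placed at chr14:1801276-1801414 on the plus strand and the LPIN1 probe at chr11:86055290-86056883 on the minus strand. These last intervals cover 139 and 1594 genome bases, more than the 60 bases of the probe. The design places the SCD probe from base 4915 and the FASN probe from base 6925 of their transcripts, and the ACACA and DGAT1 probes from bases 394 and 292. Whether a probe lies in coding sequence or in a UTR was not analysed here. GC content of the probes ran from 40% (SCD) to 60% (FASN).

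The deposited scanner files give spot brightness as intensity. A level below is the log2 of the processed signal minus the 75th percentile of the same array, so 0 is the brightness that 75% of probes do not exceed. Levels of different probes are not compared with each other as amounts of RNA, because each probe binds its target with its own strength. Where linear levels of marker probes are summed, strongly binding probes weigh more, so the sums are compared between arrays only. A probe counts as detected where the scanner software marked it as well above background. The diets were compared with limma, with calf as a block, over the 10236 probes detected on at least 4 of the 8 arrays. Each diet difference is WP minus control within a calf, with the mean ± SD of the 4 calves, and adjusted p is Benjamini-Hochberg over all 10236 probes.

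Between 62.1% and 79.4% of probes were detected per array, and no spot was saturated. All 8 arrays lay on 1 slide, in 2 rows. Row 1 held the WP arrays of calves 21 and 23 and the control arrays of calves 24 and 25, and row 2 held the other array of each calf. The WP array of calf 24 stood apart: its negative control spots had a median signal of 4.06, against at most 1.90 on the other 7 arrays. Its E1A control spots had a median signal of 40.7, against 1.36 to 1.97 on the other 7, and it had the most detected probes (11917). Of 14 rumen epithelium markers, 13 were detected on all 8 arrays, among them the keratins KRT5 and KRT14. The smallest adjusted p over all probes was 0.658. The number of arrays limits the precision: in simulated data of this design with 10194 probes, 27.6% of 2-fold and 0.746% of 1.5-fold diet differences passed the threshold.

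Of the 9 genes, 5 were detected on all 8 arrays: SREBF1, ACLY, FASN, SCD and DGAT2. DGAT1 was detected on 4 arrays (3 control, 1 WP), ACACA on 1, and GPAM and LPIN1 on 0. SCD lay above the 75th percentile on all 8 arrays. Of the 6 genes that could be tested, 0 passed an adjusted p of 0.05, as for all probes (0% of 10236 called), and 0 had an unadjusted p under 0.05, against 5.24% of probes higher and 1.75% lower on the WP diet. The mean difference was positive for SREBF1, ACLY and FASN and negative for SCD, DGAT1 and DGAT2. All 6 had WP and control arrays whose levels overlapped, while 4.85% of probes had no overlap. In the plot of levels by diet, DGAT2 is the tested gene with a lower WP point in each of the 4 calves.

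**Figure D1:**
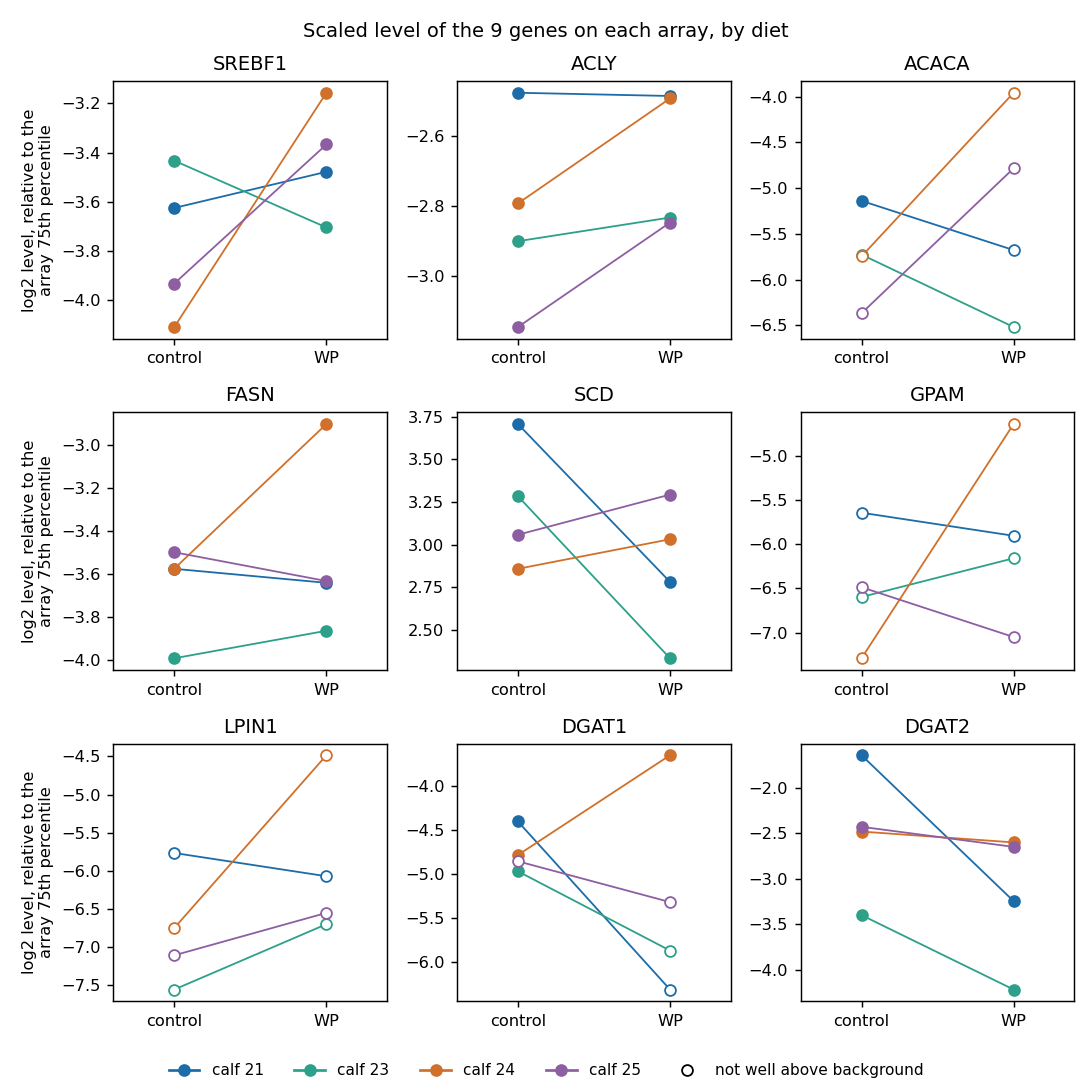
Levels of the 9 genes on each array (log2 of the processed signal, relative to the 75th percentile of that array; the vertical scale differs between panels). Each line joins the control and WP arrays of 1 calf, and open circles mark arrays on which the probe was not well above background; the 4 SCD lines split into 2 falling (calves 21 and 23) and 2 rising (calves 24 and 25).

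SREBF1, the regulator, gave levels of -3.63, -3.43, -4.11 and -3.93 on the control arrays of calves 21, 23, 24 and 25, and of -3.48, -3.70, -3.16 and -3.37 on their WP arrays. It was higher on the WP diet in calves 21, 24 and 25 and lower in calf 23. The mean difference was 0.35 ± 0.53 (SD, n = 4; 95% interval -0.23 to 0.93; limma adjusted p = 0.670). Calf 24, whose WP array stood apart, gave 0.95, more than any other calf, and without that calf the mean was 0.15. With quantile scaling of the arrays it was -0.17, so the direction of SREBF1 depends on the scaling.

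The regulators around SREBF1 split in both directions, with 9 of 15 tested genes higher on the WP diet, 6 lower and 0 past the adjusted threshold. Their median difference was 0.09, the same to 2 decimals as the 0.09 of all tested probes. INSIG1, which holds the SREBF1 protein in the endoplasmic reticulum when sterols are plentiful and is itself a target of the SREBP factors, gave -0.41 ± 0.62 (adjusted p = 0.668). INSIG1 was lower on the WP diet in calves 21, 23 and 24 (-0.58, -1.0 and -0.52) and higher in calf 25 (0.47). USF1, an E-box factor that works with SREBF1 at the FASN promoter, was higher in 4 of 4 calves, by 0.35 ± 0.13 (unadjusted p = 0.0311, adjusted p = 0.658), and its WP levels (-1.66 to -1.26) lay above its control levels (-2.03 to -1.71). Its difference ran from 0.24 to 0.43 over 14 alternative settings, with an unadjusted p of 0.0666 under quantile scaling and 0.0660 under normexp. MLXIPL, the carbohydrate-responsive factor ChREBP, gave 0.43 ± 1.19, from -1.13 in calf 23 to 1.69 in calf 25, without which the mean was 0.0080. Its dimerisation partner MLX gave 0.20 ± 0.17 and was higher in 4 of 4 calves, as were 11.9% of all probes. NR1H3, the oxysterol receptor LXR alpha, gave -0.0065 ± 0.22, and THRSP, a small protein linked to lipogenesis, -0.038 ± 0.53. Neither NR1H3 nor THRSP kept one sign over the alternative settings.

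ACLY had the tightest diet difference of the 9 genes. Its levels in calves 21, 23, 24 and 25 were -2.48, -2.90, -2.79 and -3.15 on the control diet and -2.49, -2.83, -2.49 and -2.85 on the WP diet. The difference was -0.0092 and 0.068 in the first pair of calves and 0.30 in each of calves 24 and 25. The mean difference was 0.16 ± 0.16 (SD, n = 4; 95% interval -0.15 to 0.48; limma adjusted p = 0.685), a 1.12-fold difference. Quantile and cyclic loess scaling gave -0.13 and -0.014.

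FASN gave control levels of -3.58, -3.99, -3.58 and -3.50 in calves 21, 23, 24 and 25, and WP levels of -3.64, -3.86, -2.90 and -3.63. The WP array of calf 24 had the highest of the 8 levels and the control array of calf 23 the lowest. The mean difference was 0.15 ± 0.36 (SD, n = 4; 95% interval -0.30 to 0.60; limma adjusted p = 0.781), with 0.67 in calf 24 and between -0.13 and 0.13 in the others. Without calf 24 it was -0.024, and with quantile scaling -0.28, so FASN has no direction that holds across these settings. The part of the raised negative control and E1A signals of the WP array of calf 24 in the FASN value was not tested.

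ACACA, the carboxylase between ACLY and FASN, was detected on the control array of calf 21 alone, at a level of -5.14. On the other 7 arrays it was not well above background, with levels from -6.52 to -3.96, and the highest of these was the WP array of calf 24. No fold is given for it. ACACB, the mitochondria-associated carboxylase, was also detected on 1 array, the WP array of calf 24.

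Genes that supply acetyl-CoA and NADPH were detected throughout and showed no common direction between the diets, with 5 of 8 higher, 3 lower and a median of 0.13. ACSS2, which makes acetyl-CoA from acetate and so opens the ruminant route to fatty acids, had levels of 1.21, 2.05, 2.11 and 1.92 on the control diet in calves 21, 23, 24 and 25 and of 2.0, 2.15, 1.85 and 1.53 on the WP diet. The mean difference of ACSS2 was 0.059 ± 0.53 (adjusted p = 0.940), made of 0.79 (calf 21) and 0.10 (calf 23) against -0.27 (calf 24) and -0.39 (calf 25). ME1, the NADPH-making malic enzyme, gave 0.23 ± 0.51 with the same division between calves, and 0.0063 without calf 21. PDHA1, a pyruvate dehydrogenase subunit, gave 0.31 ± 0.59, and 0.094 without calf 21. PGD, of the pentose phosphate pathway, gave -0.12 ± 0.089. Among 9 tested genes of malonyl-CoA handling and carboxylase control, 7 were higher and 2 lower. Of these PRKAA2, a catalytic subunit of the AMP-activated kinase that phosphorylates and inhibits acetyl-CoA carboxylase, gave 0.18 ± 0.16 and was higher in 4 of 4 calves, but gave -0.58 with quantile scaling. STRADA, a partner of the upstream kinase, gave 0.23 ± 0.30.

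SCD was detected on all 8 arrays, with processed signals from 1015 to 4212 in intensity. On the control diet its levels in calves 21, 23, 24 and 25 were 3.71, 3.28, 2.86 and 3.06, and on the WP diet 2.78, 2.33, 3.03 and 3.29. The diet difference was -0.93 and -0.95 in calves 21 and 23, but 0.17 and 0.24 in calves 24 and 25. The mean of -0.37 ± 0.66 (SD, n = 4; 95% interval -1.06 to 0.33; limma adjusted p = 0.685) therefore describes no single calf. It was -0.18 without calf 21, -0.17 without calf 23, -0.55 without calf 24 and -0.57 without calf 25.

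This division between calves is also a division by the position of the arrays on the slide. In each calf the SCD level was lower on the array in row 1 than on the array in row 2, by 0.93, 0.95, 0.17 and 0.24 on the log2 scale in calves 21, 23, 24 and 25, whichever diet the array carried. The share of all probes lower in row 1 in 4 of 4 calves was 10.4%, the same set that is lower on the WP diet in calves 21 and 23 and higher in calves 24 and 25. With calf and diet as blocks, row 1 minus row 2 was -0.57 for SCD (SE 0.099; 95% interval -0.84 to -0.30; unadjusted p = 0.00429; limma adjusted p = 0.285), a 1.49-fold difference that does not pass the adjusted threshold, which 0% of probes passed. It lay between -0.59 and -0.56 with each calf left out in turn and was -0.56 with quantile scaling. With normexp background correction it was -0.58 and passed (adjusted p = 0.0458), a setting in which 91 probes passed. For SCD the row difference was larger than the diet difference. The sources used here do not say which diet each calf received first, so the slide row and the feeding period cannot be told apart.

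**Figure D2:**
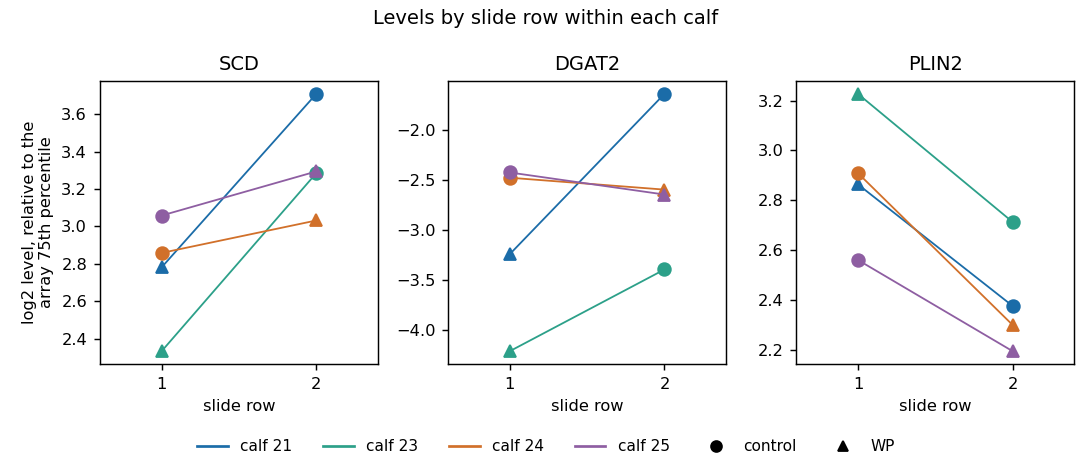
Levels of SCD, DGAT2 and PLIN2 (log2, relative to the 75th percentile of each array; the vertical scale differs between panels) by slide row, with 1 line per calf, circles for control and triangles for WP arrays. SCD is lower in row 1 than in row 2 in all 4 calves, PLIN2 is higher in row 1 in all 4, and DGAT2 is lower in row 1 in calves 21 and 23 only.

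Other genes differed between the slide rows by unadjusted p, in one direction or the other. Of the 6 tested enzymes and regulator, 3 had an unadjusted p under 0.05 for lower levels in row 1 (SCD, DGAT2 and SREBF1), against 7.30% of all probes, and 0 for higher levels, against 5.60%. For SREBF1 the row difference was -0.41 (adjusted p = 0.371), but with normexp and quantile processing it was 0.057 and 0.010. The row 1 and row 2 levels of all 6 overlapped, while those of 6.95% of probes did not. For DGAT2 it was -0.52 (adjusted p = 0.363) and -0.035 with normexp. PLIN2, which coats lipid droplets, went the opposite way to SCD, with levels of 2.86, 3.23, 2.91 and 2.56 in row 1 and 2.38, 2.71, 2.30 and 2.20 in row 2 in calves 21, 23, 24 and 25. Its row difference was 0.49 (adjusted p = 0.303), higher in row 1 in 4 of 4 calves, as were 10.6% of probes, and from 0.43 to 0.55 over its alternatives. Among the 79 tested genes of the wider pathway 8 had an unadjusted p under 0.05 for higher and 2 for lower levels in row 1, and 0 passed the adjusted threshold.

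Marker genes of immune cells had lower summed levels in row 1 as well. The summed linear level of 6 macrophage and dendritic markers was 3.06 to 3.57 on the row 1 arrays and 4.09 to 8.77 on the row 2 arrays, without overlap. Without AIF1, the largest contributor, the sums were 1.94 to 2.61 and 2.66 to 4.63. Of the 5 tested markers 3 (CD68, AIF1 and CD86) were lower in row 1 in 4 of 4 calves. These are named after their values were seen, and no marker passed the adjusted threshold for the row (smallest limma adjusted p = 0.255). The sum of 6 T and NK cell markers was 0.323 to 0.489 in row 1 and 0.482 to 1.11 in row 2, and CD3D was lower in row 1 in 4 of 4 calves. The sum of 14 rumen epithelium markers was 946 to 1138 in row 1 and 764 to 974 in row 2. The part of these cell types in the SCD value was not tested. In a bulk sample, fewer cells of a type and less RNA per cell cannot be told apart.

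The genes that share acyl chain modification with SCD gave mixed values, with 7 of 12 higher on the WP diet, 5 lower and a median of 0.11. ELOVL1, an elongase of very long saturated and monounsaturated chains, had the smallest unadjusted p of all the pathway genes examined. Its brightest probe gave -1.19, -1.61, -0.95 and -1.40 on the control diet in calves 21, 23, 24 and 25 and -1.96, -1.99, -1.80 and -1.81 on the WP diet, without overlap. The difference was -0.61 ± 0.24 (SD, n = 4; unadjusted p = 0.00707; limma adjusted p = 0.658) and negative in all 14 alternatives that use this probe, from -0.81 to -0.33. ELOVL1 has a second tested probe, and the mean over both was -0.32, against -0.61 for the brightest alone. The second probe therefore showed a much smaller difference, and the fall rests on the brightest probe. ELOVL6, which extends palmitate to stearate, the substrate of SCD, gave 0.29 ± 0.29 and was higher in 4 of 4 calves, by 0.55, 0.52, 0.062 and 0.015 in calves 21, 23, 24 and 25. TECR, the last reductase of the elongation cycle, gave -0.34 ± 0.35. FADS2, the delta-6 desaturase, was detected on 0 arrays.

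The first step of the glycerol route was not measurable through GPAM, which was not well above background on any array, with levels from -7.29 to -4.64. LPIN1 was likewise detected on 0 arrays, with levels from -7.56 to -4.48. For both genes the highest of the 8 levels was on the WP array of calf 24. No fold is given for either, and the absence of a detected signal on these probes is not evidence that the genes are silent. The other members of these enzyme families were detected more often. GPAT4, a microsomal acyltransferase of the same first step, was detected on 8 arrays and gave 0.19 ± 0.17, higher in 4 of 4 calves (adjusted p = 0.673). GPAT2, a mitochondrial one, gave 0.55 ± 0.40, with 0.36, 0.74, 1.0 and 0.11 in calves 21, 23, 24 and 25 (unadjusted p = 0.0293, adjusted p = 0.658). Over 14 alternatives it was positive, from 0.13 within slide row 1 to 0.98 within slide row 2. It was 0.31 (unadjusted p = 0.0747) with quantile scaling and 0.29 (unadjusted p = 0.116) with cyclic loess, and without the calf block its unadjusted p was 0.144. AGPAT2, which adds the second acyl chain, gave -0.012 ± 0.22, and GPD1, which makes glycerol-3-phosphate, 0.47 ± 0.56, though -0.028 with quantile scaling. In the whole role list of acyltransferases and phosphatases 8 of 12 were higher, 4 lower and the median was 0.13.

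DGAT1 sat at the edge of detection. Its control levels were -4.40, -4.97, -4.78 and -4.85 in calves 21, 23, 24 and 25, well above background in the first 3 of these, and its WP levels were -6.31, -5.87, -3.65 and -5.32, well above background in calf 24 alone. The WP level was lower than the control level in calves 21, 23 and 25 and higher in calf 24. The fit gave -0.53 ± 1.26 (SD, n = 4; limma adjusted p = 0.733), a value whose size is not set, because 3 of 4 WP arrays were not well above background. Without calf 24 it was -1.09, without calf 21 -0.076, and with normexp background correction 0.16.

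DGAT2 was the only one of the 6 tested genes with a lower level on the WP diet in 4 of 4 calves, as were 5.39% of all tested probes. Its levels in calves 21, 23, 24 and 25 were -1.64, -3.40, -2.48 and -2.43 on the control diet and -3.25, -4.21, -2.60 and -2.65 on the WP diet. The differences were -1.60 and -0.82 in calves 21 and 23 but -0.12 and -0.22 in calves 24 and 25. The mean was -0.69 ± 0.68 (SD, n = 4; 95% interval -1.40 to 0.024; unadjusted p = 0.0555; limma adjusted p = 0.658), a 1.61-fold difference. Calf 21 had both the highest control level and the largest difference. Without calf 21 the mean was -0.39, with normexp -0.14, and in slide row 2 alone, which sets the WP arrays of calves 24 and 25 against the control arrays of calves 21 and 23, -0.10. Larger differences came with quantile scaling (-0.96) and cyclic loess (-0.88), without calf 24 (-0.88) or calf 25 (-0.85), and in slide row 1 alone (-1.27). The DGAT2 difference was negative in all 14 alternatives, from -1.27 to -0.10.

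**Figure D3:**
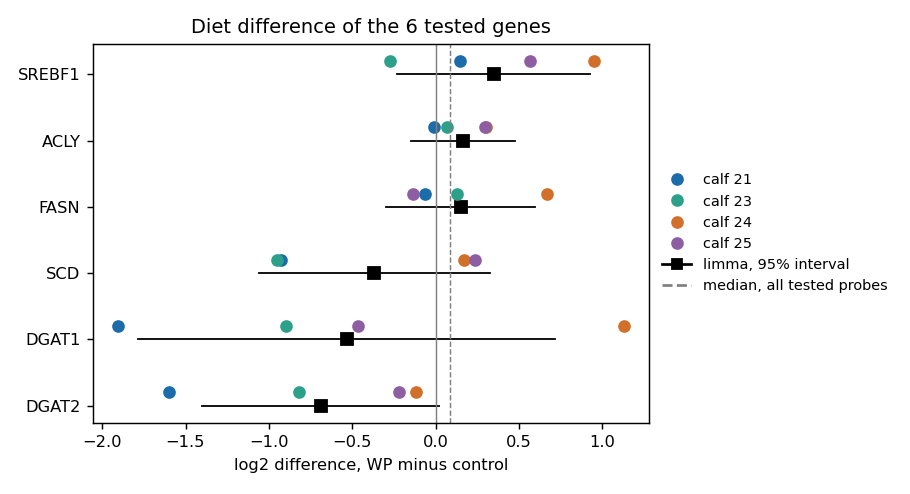
Diet difference (log2, WP minus control) of the 6 tested genes, with 1 point per calf above the limma estimate (square) and its 95% interval; the dashed line is the median of all tested probes at 0.087. Every interval includes 0, and the interval of DGAT2 reaches to 0.024.

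Downstream of the acyltransferases, the lipid droplet and lipolysis genes had the median closest to 0 of the role lists, 0.027, with 9 of 13 higher and 4 lower. CIDEA, a droplet protein that promotes lipid transfer between droplets, gave control levels of 0.13, -0.19, -0.39 and -0.12 and WP levels of -0.68, -0.32, -1.05 and -0.87 in calves 21, 23, 24 and 25. It was lower in 4 of 4 calves, by -0.59 ± 0.31 (SD, n = 4; unadjusted p = 0.0128; limma adjusted p = 0.658), and was negative in all 14 alternatives (-0.93 to -0.25). PLIN4, another droplet coat, was detected on 4 WP arrays and 2 control arrays, which leaves its size undetermined. It gave 0.77 ± 0.98, with 2.10 in calf 24, and 0.33 without that calf and 0.15 with quantile scaling. PNPLA2, the lipase that takes the first acyl chain from triglyceride, gave 0.13 ± 0.36 (0.032 without calf 21), and PLIN2 0.0067 ± 0.58. The PLIN2 mean is made of differences of 0.49, 0.51, -0.61 and -0.37 in calves 21, 23, 24 and 25, each with the opposite sign to SCD.

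Genes that bring in and activate fatty acids gave 7 of 10 higher, 3 lower and a median of 0.10. FABP4, a fatty acid carrier of adipocytes, macrophages and endothelium, ranged most, with differences of -3.03, 0.026, 1.36 and -1.78 in calves 21, 23, 24 and 25 and a mean of -0.86 ± 1.94 (adjusted p = 0.718) that was -0.13 without calf 21. FABP5, the epidermal carrier, gave 0.21 ± 0.21 and was higher in 4 of 4 calves, SLC27A4, a fatty acid transport protein with acyl-CoA synthetase activity, -0.36 ± 0.43, and ACSL1, a long-chain acyl-CoA synthetase, 0.075 ± 0.40. LPL, the lipoprotein lipase, was detected on 3 arrays and was not tested. Of 11 adipocyte markers on the array 2 (FABP4 and CFD) were detected on all 8 arrays, AQP7 on 7 and PLIN4 on 6. The others were LPL on 3 arrays, LIPE on 2, ADIPOQ, CIDEC and PCK1 on 1 each, and LEP and PLIN1 on 0. ADIPOQ was detected on the WP array of calf 24. FABP4, which macrophages and endothelium also express, made up 81.6% to 96.1% of the summed linear level of the 11 markers. That share also depends on how strongly each probe binds. Without FABP4 the summed level was 0.246 to 0.677 on the control and 0.357 to 1.12 on the WP arrays.

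The genes whose levels over the 8 arrays were most like those of each enzyme, by Pearson correlation among 9728 genes, were listed as a description. All arrays share 1 slide and the same scaling, and with 8 arrays high values are common among so many genes. For SCD these were SORBS3 (r = 0.975), RAX2 (0.975) and SPHK2 (0.974), each lower in row 1 than in row 2 on average (-0.39, -0.72 and -0.23). For DGAT2 they were KRT3 (0.968), NSUN2 (0.965) and AGPAT3 (0.956), the last of these an acyltransferase of the same glycerol route. FASN was most like CYB5D2 (0.987), CHAF1B (0.986) and HS1BP3 (0.976), ACLY like FKBP10 (0.947), ADAMDEC1 (0.938) and LAX1 (0.934), and SREBF1 like INTS5 (0.959), ATXN7L3B (0.950) and USP40 (0.938). CHAF1B, ADAMDEC1 and LAX1 were detected on 4 of the 8 arrays, CYB5D2 on 6 and HS1BP3 on 7. Their correlations therefore rest in part on values not well above background. The other genes named as alike were detected on all 8. None of the other 8 enzymes and regulator appeared among the 3 genes most like SREBF1, ACLY, FASN, SCD or DGAT2.

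Over the 7 role lists together, 79 of 92 listed genes were tested, of which 0 passed an adjusted p of 0.05, 52 had a positive and 27 a negative difference. Over all probes the shares were 64.4% positive and 35.6% negative. Those with an unadjusted p under 0.05 were USF1 and GPAT2, which were higher, and ELOVL1 and CIDEA, which were lower (2 each way of 79, beside 5.24% of all probes higher and 1.75% lower). Differences of the same sign in 4 of 4 calves were positive in 7 and negative in 5 of the 79, beside 11.9% and 5.39% of all probes. The median difference was 0.094, against 0.087 over all probes and -0.11 over the 6 tested genes of the 9. The last value rests on 6 genes of opposite sign and turned to 0.17 with normexp background correction, to 0.15 over the 5 genes detected on all 8 arrays and to 0.073 without calf 21. In the plot by role, the points of every list lie on both sides of 0.

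**Figure D4:**
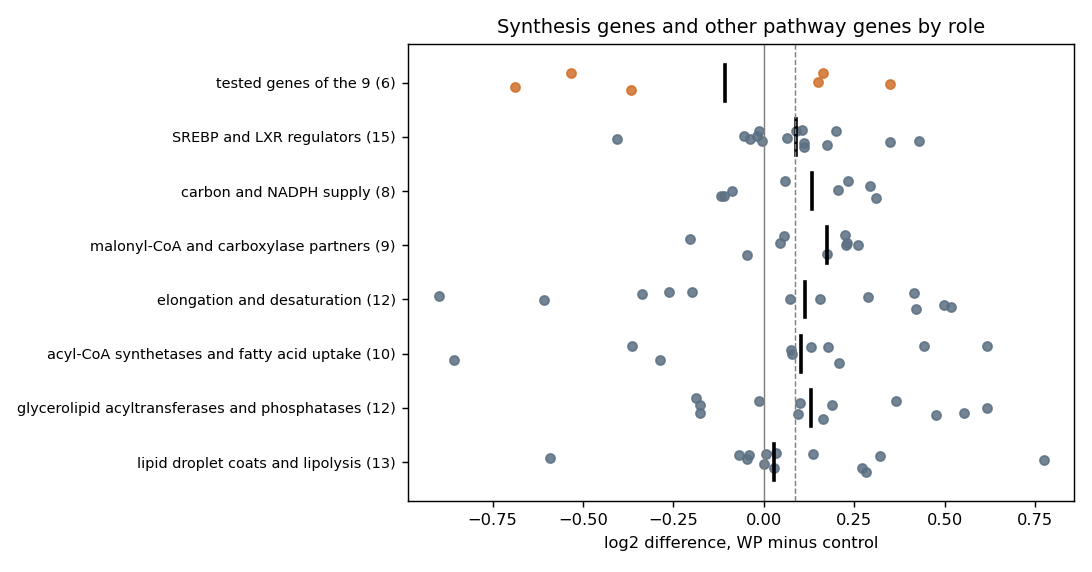
Diet difference (log2, WP minus control) of each tested gene, by its role, with the number of genes in brackets; the upper line of points shows the 6 tested genes of the 9. Short vertical bars are list medians, which lie between 0.027 and 0.18 for the 7 role lists, and the dashed line is the median of all tested probes; vertical scatter within a list has no meaning.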

How the data were processed

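Cy3-labelled cRNA from 500 ng of total RNA per sample was hybridised, 1 array per calf and diet. The deposited intensity values are processed signals that Agilent Feature Extraction had corrected for background (version 11.0.1.1 per the file headers, 9.5 per the submitters' processing notes). A value table from the authors, deposited beside these files, is in log2 units and its columns differ from log2 of the processed signal by 1 constant per array (slopes 1.00), so its scale and direction are settled and its values were not centred by gene. It served as an alternative. With outlier spots left out, the scanner files and that table both gave values for 14935 probes on the WP array of calf 24. On each other array the number was 15006 to 15008.

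Control spots (536) and 97 outlier spots were left out, spots of a probe were averaged, and log2 signals were scaled to the 75th percentile of each array. RefSeq (ARS-UCD2.0, used only for names) matched 11194 probes through their accession, 3085 through the current symbol and 38 through an older one, and 691 kept the array's own name. A gene is represented by its brightest probe. limma 3.58.1 in R 4.3.3 (lmFit, eBayes, two-sided) had the calf number as a block, because each calf number occurs on both diets in the labels. Deviations of the 2 arrays of a calf from the diet means correlated at 0.00897 to 0.195 across probes. With 4 calves an exact sign-flip test has a smallest p of 0.125, so none is reported.

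Genes and lists were chosen with earlier results of these data known. Named are the 9 genes, the 2 genes of smallest p in each of 7 role lists, 18 further pathway genes chosen by name (CD36 has no probe under that name), and the 3 most alike per detected gene. Alternatives were normexp (offset 50), quantile and cyclic loess scaling, the value table, the filter, the block, the slide row and each calf left out. Those for the row contrast were chosen after seeing the data.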

Additional observations from a re-analysis of the deposited data

Results flagged for a closer look

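The FASN level on the control array of calf 23, -3.99, stood apart from the other 3 control arrays, which lay between -3.58 and -3.50. Its gap to the nearest of them was 0.844 of the range of the group, above Dixon's 95% critical value for 4 arrays. In all, 18 sets of 4 values were examined in this way (both diets and the within-calf differences of 6 genes), and chance alone marks about 5% of such sets.

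The diet difference of SCD differed between the calves whose WP array lay in slide row 1 (calves 21 and 23) and the others, with opposite signs. The test of that difference is the row term, -0.57 (limma unadjusted p = 0.00429, adjusted p = 0.285), which does not pass the adjusted threshold over all probes. The level in row 1 was lower in 4 of 4 calves.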

How the results depend on the processing

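No probe passed the adjusted threshold for the diets in any of the 14 alternatives, which gave 429 to 1360 probes at an unadjusted p under 0.05 against 715. SCD and DGAT2 were lower on the WP diet in all 14. The median over the tested genes, -0.11, ran from -0.29 to 0.073 with 1 calf left out. Without the calf block (unpaired) it stayed at -0.11, the smallest adjusted p over all probes was 0.353, and no call changed. Each of the 9 genes has 1 probe, so averaging probes leaves them as they are. DGAT1, PLIN4, PRKAA2 and THRSP gave no value where 8 arrays had to be above background. The share of lower probes among those at p under 0.05 was 25.0%, and 63.6% with quantile, 61.0% with cyclic loess, 11.2% with no filter, 14.4% without calf 21, 38.5% without calf 24 and 39.4% within row 1. For the rows it was 56.6%, and 40.5% with normexp, 43.5% with quantile and 79.8% without calf 25.

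The sign of some diet differences turned, and the cause was not tested. Quantile scaling gave FASN -0.28, ACLY -0.13, SREBF1 -0.17, ACSL1 -0.053, AGPAT2 0.0017, GPD1 -0.028, PRKAA2 -0.58 and STRADA -0.013. Cyclic loess gave FASN -0.16, ACLY -0.014, ACSL1 -0.0097 and PRKAA2 -0.33. Normexp gave DGAT1 0.16, ACSS2 -0.011, NR1H3 0.10, PLIN2 -0.075 and THRSP 0.16. Within row 1 FASN was -0.21, ACSL1 -0.035, AGPAT2 0.20, NR1H3 0.43 and PGD 0.013, and within row 2 DGAT1 was 0.20, PLIN2 -0.30 and THRSP 0.071. With 1 calf left out FASN ran from -0.024 to 0.24, ACSL1 from -0.053 to 0.26, ACSS2 from -0.19 to 0.21, AGPAT2 from -0.10 to 0.054, NR1H3 from -0.088 to 0.084, PLIN2 from -0.16 to 0.21 and THRSP from -0.24 to 0.15.

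For the rows, normexp gave FASN 0.11, ACLY 0.074, DGAT1 0.11 and SREBF1 0.057, and quantile scaling FASN 0.19, ACLY 0.064 and SREBF1 0.010. FASN ran from -0.32 to 0.082 with 1 calf left out. SCD passed with normexp (-0.58, adjusted p = 0.0458) and in no other of its 7 row alternatives.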
